A study of Homo sapiens with 6 samples.

Results

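The 5 entries AL356488.2, AC016831.4, AC025031.4, AC007878.1 and AL133325.3 are annotated as long non-coding RNAs (lncRNAs) and were scarce in immunoprecipitates of thymidylate synthase (TS) relative to antibody-free control beads. They are 5 of the 42822 entries of the expression table, of which 16281 are lncRNAs, and they were picked by name for their low ratio of TS-RIP to RIPctr, so every value of that ratio below is a description and carries no test. All libraries came from 1 human cell line, HCT116-UGI, a mismatch repair-deficient colon adenocarcinoma line in which UNG, the enzyme that cuts uracil out of DNA, is blocked by the expressed inhibitor UGI. Cells were given raltitrexed (RTX, 100 nM) or the nucleoside 5-fluoro-2'-deoxyuridine (5FdUR, 20 µM) for 48 h, or were left untreated (NT). RTX blocks TS as a folate analogue, whereas 5FdUR does so after phosphorylation, as a covalently bound analogue of its nucleotide substrate. From each combined cytoplasmic and nuclear extract, RNA was recovered with an anti-TS antibody (TS-RIP) and, beforehand, from the antibody-free pre-clearing beads (RIPctr), which gave 6 libraries with 1 per treatment and fraction.

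There was no biological replicate of a treatment, and depth ranged from 7051104 to 11657293 fragments per library. Values are fragments multiplied by a scaling factor of the library, so that 1 fragment was worth between 85.0 and 136 units. In the TS-RIP libraries 9 colon epithelial markers summed to between 6413932 and 10220741 units, and in RIPctr to between 6735681 and 8758766, with KRT8 the highest. Of the 9, 6 had a mean above 500 units over the 6 libraries, and KRT8 alone averaged 4312090. The 3 blood markers summed to at most 681 units in any library, the 2 liver markers to at most 385 in TS-RIP and 249 in RIPctr, and CD3E was listed at 0 throughout. The 3 endothelial markers reached 3570 units in TS-RIP and 3533 in RIPctr. The 3 fibroblast markers reached 21676 in TS-RIP and 24734 in RIPctr, nearly all of it COL1A1. In bulk RNA, fewer cells with a transcript and less of it per cell cannot be told apart.

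TS is the enzyme that makes thymidylate for DNA synthesis, and it also binds RNA, its own mRNA being the classical example. The control beads were taken out of the extract before the antibody was added, so for an RNA that is high on these beads and scarce in TS-RIP, loss to the beads and absence from TS complexes cannot be told apart. Small Cajal body RNAs (scaRNAs) are nuclear RNAs that guide the modification of spliceosomal snRNAs, and lncRNAs such as MALAT1 and NEAT1 stay in the nucleus, in speckles and paraspeckles. For 4 of the 5 entries, known only by clone names, no function is given in the sources used here.

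The name lncRNA did not describe AL356488.2 fully. In GENCODE 44 on GRCh38 its single exon (ENSG00000270066, chromosome 1, 109100193 to 109100619, plus strand, 427 bases) starts at the same base as SCARNA2, a box C/D scaRNA that guides methylation of the U2 snRNA and ends at 109100612. All 420 bases of SCARNA2 are identical to it, and AL356488.2 runs on for 7 more bases at the 3′ end. The table held 0 entries with the SCARNA2 transcript, so fragments of both RNAs fall into AL356488.2 and cannot be told apart. The sequence is shown because this entry carried most of the fragments of the 5. Capitals in the first stretch (bases 1 to 300) mark AGCCC, a pentamer described for the nuclear lncRNA BORG. In the second (bases 301 to 420) they mark TGATGA, the core of a C box, at base 350 and CTGA, the D box, at bases 394 and 412. In the third (bases 401 to 427) they mark the 7 bases that lie beyond SCARNA2. Sequences are those of the GENCODE 44 transcripts, written as DNA.
AL356488.2, bases 1 to 300: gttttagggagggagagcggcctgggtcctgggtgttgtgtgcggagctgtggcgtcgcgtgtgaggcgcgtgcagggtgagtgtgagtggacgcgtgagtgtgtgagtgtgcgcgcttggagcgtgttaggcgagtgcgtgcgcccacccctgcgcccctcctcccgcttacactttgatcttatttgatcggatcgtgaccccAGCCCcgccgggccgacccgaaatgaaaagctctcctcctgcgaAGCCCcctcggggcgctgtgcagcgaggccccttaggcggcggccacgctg
AL356488.2, bases 301 to 420: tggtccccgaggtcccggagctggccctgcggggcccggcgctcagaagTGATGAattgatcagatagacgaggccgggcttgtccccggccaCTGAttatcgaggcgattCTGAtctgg
AL356488.2, bases 401 to 427: tcgaggcgattctgatctggGCACGGC
TGATGA occurred on the sense strand in 10.6%, and on the antisense strand in 8.17%, of the first 420 bases of the 1126 measured lncRNAs that are at least this long. Measured means an average above 500 units over the 6 libraries, and 1137 of 1143 such lncRNAs were matched to GENCODE 44 by transcript.

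The remaining 4 entries lie at 4 unrelated loci. AC016831.4 (ENSG00000271204, chromosome 7, 130930209 to 130932206, minus strand) is a single exon of 1998 bases within an intron of LINC-PINT, a p53-induced lncRNA, and touches exons of LINC00513 on the other strand. AC025031.4 (ENSG00000275481, chromosome 12, 46388856 to 46392126, plus strand) is a single exon of 3271 bases within an intron of SLC38A4-AS1. AC007878.1 (ENSG00000281195, chromosome 2, 71373938 to 71376320, plus strand) has 2 exons of 124 and 1491 bases and lies inside ZNF638, which encodes a nuclear zinc finger protein. Of 27 ZNF638 transcripts, 1 shared exonic bases with it, and that one was not among the transcripts counted for ZNF638. AL133325.3 (ENSG00000278041, chromosome 20, 21499261 to 21502934, minus strand) is a single exon of 3674 bases, intergenic on its own strand, with the pseudogene GSTM3P1 opposite. Fragments of an unspliced host transcript on the same strand cannot be told apart from those of an entry inside its intron.

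The last 80 bases of these 4 transcripts are shown because polyadenylation signals would lie there, with AATAAA in capitals. The motif was found in AL133325.3 alone, and ATTAAA in 0 of the 5 entries.
AC016831.4, last 80 bases: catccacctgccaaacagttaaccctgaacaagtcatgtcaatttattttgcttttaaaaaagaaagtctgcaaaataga
AC025031.4, last 80 bases: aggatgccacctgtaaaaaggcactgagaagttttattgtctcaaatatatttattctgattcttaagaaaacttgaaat
AC007878.1, last 80 bases: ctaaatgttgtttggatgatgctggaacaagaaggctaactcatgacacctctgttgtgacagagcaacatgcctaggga
AL133325.3, last 80 bases: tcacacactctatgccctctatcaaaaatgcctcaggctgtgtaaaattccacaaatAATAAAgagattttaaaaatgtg
Among the 1137 measured lncRNAs, 37.9% had AATAAA and 12.6% had ATTAAA on the sense strand of the last 50 bases, against 5.19% and 4.57% on the antisense strand, where AATAAA occurred in 2 of the 5. The genome continues after AC016831.4 with a run of A, in capitals below, so that 15 of the next 20 bases are A, more than after 96.7% of measured lncRNAs.
AC016831.4, 20 bases after the annotated end: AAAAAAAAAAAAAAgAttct
The other 4 had between 1 and 5 A in that window, and the median over measured lncRNAs was 5. This window was chosen after the sequences had been seen.

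AL356488.2 was abundant on the control beads and had little of that level in TS-RIP under both drugs. Its TS-RIP values were 1445 units in RTX, 997 in 5FdUR and 3995 in NT, from 15, 10 and 47 fragments. Its RIPctr values were 128553 units in RTX, 110106 in 5FdUR and 57104 in NT, from 1033, 808 and 501 fragments. All 3 RIPctr values thus lay above all 3 TS-RIP values, as they did for each of the 5 entries and for 7.33% of the 13479 genes with a mean above 500, a count that the choice of the entries fixed. Within TS-RIP the NT library was the highest while within RIPctr it was the lowest. The TS-RIP level was 1.12% of RIPctr in RTX (95% interval 0.627 to 1.86), 0.905% in 5FdUR (0.432 to 1.67) and 7.0% in NT (5.07 to 9.45). These and all further intervals were computed by the exact binomial method of Clopper and Pearson from the 2 fragment counts and cover counting error only, since PCR copies are not independent molecules.

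**Figure D1:**
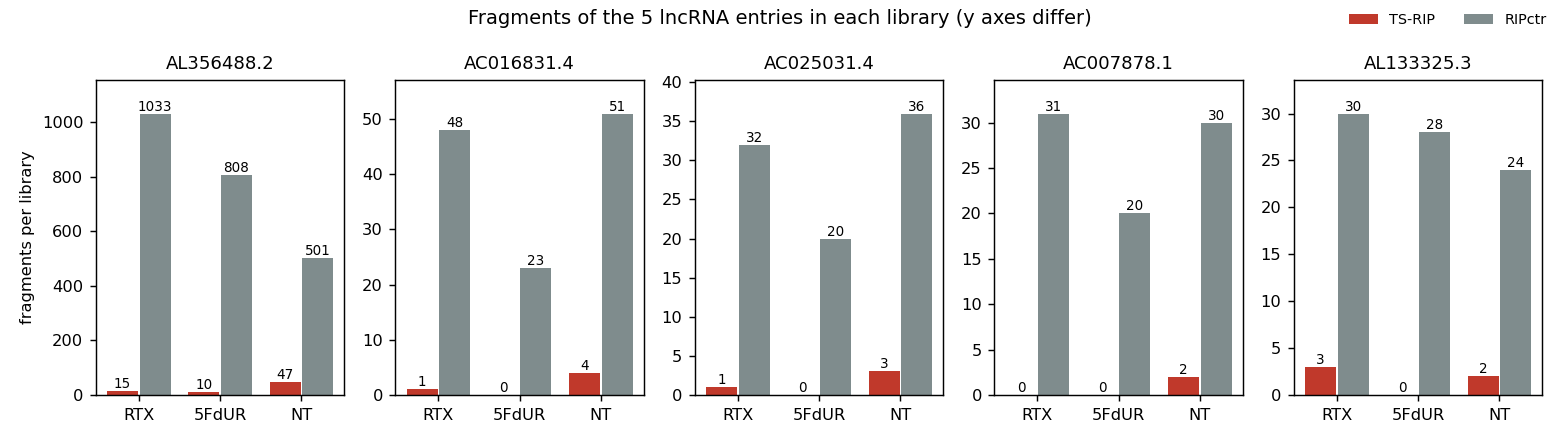
Fragments (y axis, 1 scale per panel) of each of the 5 entries in the TS-RIP (red) and RIPctr (grey) libraries of RTX, 5FdUR and NT, each bar being 1 library with its count above it. In all 15 pairs the TS-RIP bar is lower, and for the 4 entries other than AL356488.2 it holds between 0 and 4 fragments.

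AC016831.4, inside LINC-PINT, had 1 fragment in RTX, 0 in 5FdUR and 4 in NT in the TS-RIP libraries, and 48, 23 and 51 in the RIPctr libraries of the same treatments. Its TS-RIP level was 1.61% of RIPctr in RTX (0.04 to 9.43) and 5.85% in NT (1.54 to 15.9). In 5FdUR, with 0 fragments, its interval reached up to 12.7% of RIPctr. Taking the 0 as a floor of 3 fragments in that library, it was 10.5-fold lower. This floor was used for every library at 0, and it takes the RIPctr count as exact. AC025031.4, inside SLC38A4-AS1, had TS-RIP counts of 1, 0 and 3 in RTX, 5FdUR and NT, against RIPctr counts of 32, 20 and 36. That was 2.42% of RIPctr in RTX (0.0594 to 14.5) and 6.21% in NT (1.22 to 19.7). In 5FdUR it was 9.12-fold lower by the floor, with an interval up to 14.8%. In RIPctr both entries had their fewest fragments in 5FdUR, which was also the shallowest library (7051104 fragments). For AC025031.4 the scaled log2 change in 5FdUR against NT lay within counting error (-0.59, -1.46 to 0.24). TS-RIP counts this low do not order the treatments.

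AC007878.1, inside ZNF638, had TS-RIP counts of 0, 0 and 2 in RTX, 5FdUR and NT, against RIPctr counts of 31, 20 and 30. By the floor it was 13.3-fold lower in RTX and 9.12-fold lower in 5FdUR, with intervals up to 9.78% and 14.8% of RIPctr. In NT its level was 4.97% of RIPctr (0.576 to 19.6). AL133325.3, the intergenic entry, had TS-RIP counts of 3, 0 and 2 in RTX, 5FdUR and NT, against RIPctr counts of 30, 28 and 24. Its TS-RIP level was 7.74% of RIPctr in RTX (1.51 to 24.9) and 6.21% in NT (0.712 to 25.0). In 5FdUR it was 12.8-fold lower by the floor, with an interval up to 10.3%. Summed over these 4 entries, TS-RIP held 5 fragments in RTX, 0 in 5FdUR and 11 in NT, and RIPctr held 141, 91 and 141.

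**Figure D2:**
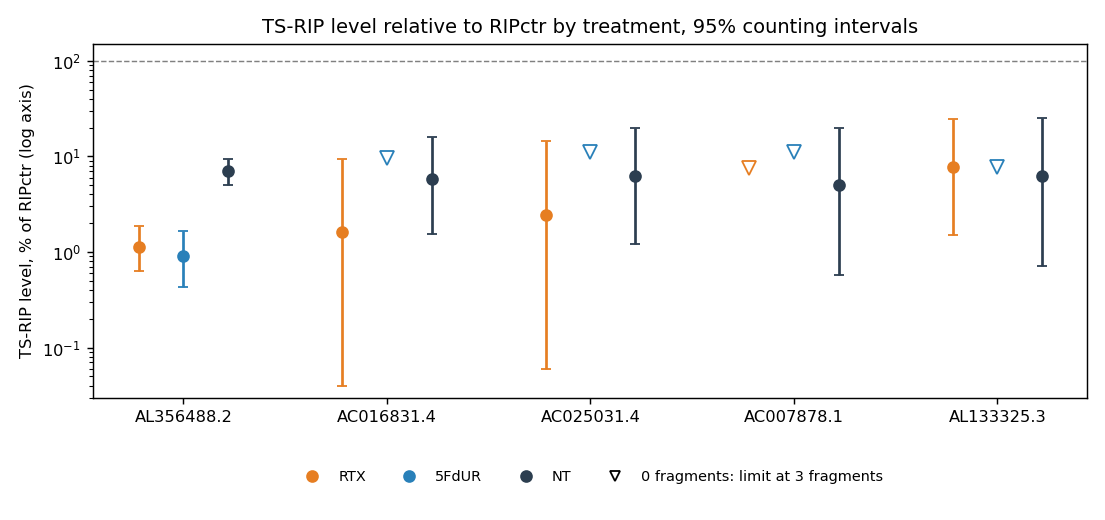
TS-RIP level as a percentage of RIPctr (log axis) for each entry in RTX, 5FdUR and NT. Points carry 95% counting intervals, and the dashed line marks equal levels. Open triangles give the limit set by 3 fragments where TS-RIP held 0, with the RIPctr count taken as exact. All intervals of points end at or below 25.0%, and those of AL356488.2 in RTX and 5FdUR lie below its interval in NT.

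On the scale used for all genes, the log2 of each value plus 100 units, RIPctr subtracted from TS-RIP, the median ratio of the 5 entries was -4.95 in RTX (range -6.38 to -3.30), -5.02 in 5FdUR (-6.65 to -4.82) and -3.70 in NT (-3.80 to -3.39). The medians of the 1143 measured lncRNAs were -0.69, -0.56 and -0.30 in the same treatments, and those of all 13479 measured genes lay between -0.01 and 0.02. All 5 entries were lower in TS-RIP by more than 1.5-fold in each treatment, where 14.7% of 13540 genes were lower in RTX, 15.1% of 13776 in 5FdUR and 9.80% of 13301 in NT (mean of both libraries above 500). All 5 also passed a limma fit over the 3 treatments (Benjamini-Hochberg adjusted p under 0.05), as did 6.17% of the 13479 genes in this direction. The choice of the entries fixed both counts, and nothing is read from them.

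Averaged over the 3 treatments, the ratio was -5.61 ± 1.57 for AL356488.2, -4.61 ± 0.82 for AC007878.1, -4.57 ± 0.71 for AC016831.4, -4.25 ± 0.64 for AC025031.4 and -3.99 ± 1.12 for AL133325.3 (SD, n = 3 treatments). Among the measured lncRNAs these were ranks 1, 4, 5, 6 and 7 from the lowest, with MALAT1 (-5.43 ± 0.94) and NEAT1 (-5.39 ± 1.30) at ranks 2 and 3. The gaps between neighbours in this order were smaller than their SDs. Each SD is that of 1 gene over the treatments, and differences paired by treatment were not tested. The next lncRNAs were Z83843.1 (-3.90 ± 0.29), MIR222HG (-3.90 ± 0.75) and N4BP2L2-IT2 (-3.88 ± 1.58). At the boundary, Z83843.1 had TS-RIP counts of 2, 0 and 3 in RTX, 5FdUR and NT, against RIPctr counts of 29, 13 and 43, close to those of AL133325.3. In 5FdUR, 7 of the 351 measured lncRNAs with at least 20 RIPctr fragments had 0 fragments in TS-RIP, and 4 of the 7 were AC016831.4, AC025031.4, AC007878.1 and AL133325.3. The entries were picked for a low ratio, and 20 is also their lowest RIPctr count in 5FdUR. This share follows from the choice and the cut, and nothing is read from it.

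**Figure D3:**
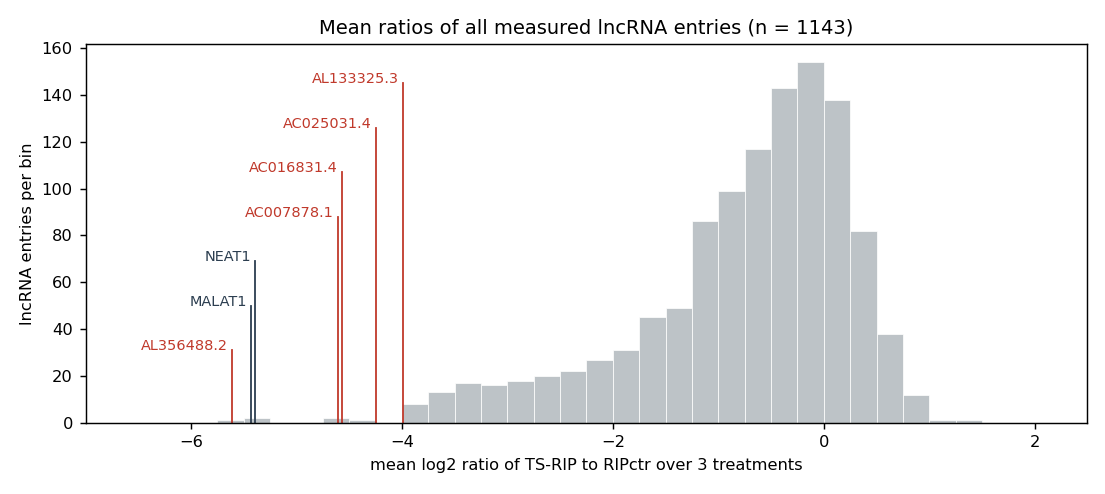
Number of measured lncRNA entries (y axis, n = 1143) by mean log2 ratio of TS-RIP to RIPctr over the 3 treatments (x axis, bins of 0.25). Red lines mark the 5 entries and dark lines MALAT1 and NEAT1. These 7 form the lower end, from -5.61 to -3.99, while the median of all bins together is -0.50.

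Levels between the entries were compared per kilobase of exon. AL356488.2 averaged 5025 units per kb in TS-RIP and 230885 in RIPctr. That RIPctr level was rank 2 of the 1137 measured lncRNAs. AC016831.4 averaged 72.8 units per kb in TS-RIP and 2489 in RIPctr, AC007878.1 35.1 and 2065, AC025031.4 35.8 and 1102, and AL133325.3 41.7 and 933. The medians over measured lncRNAs were 438 in TS-RIP and 721 in RIPctr. All 5 were above the lncRNA median on the control beads, at percentiles between 61.2 and 99.8. An entry with little TS-RIP signal can reach the mean set for measured lncRNAs only through its RIPctr values. High RIPctr and low TS-RIP percentiles were thus favoured by the choice of the entries, and nothing is read from them. In TS-RIP the 4 clone-named entries other than AL356488.2 lay at percentiles between 3.87 and 8.53, whereas AL356488.2 was still at percentile 95.3, so that nearly absent described its share of the control level and not its level among lncRNAs in TS-RIP.

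Whether the host genes and neighbours were low in TS-RIP too differed from locus to locus. The table counted LINC-PINT, the host of AC016831.4, in 1 entry with the microRNA genes MIR29A and MIR29B1. This entry fell by 3.11 ± 0.75 on the log2 scale in TS-RIP (SD, n = 3 treatments, limma adjusted p = 7.63e-07), with 31, 48 and 66 TS-RIP fragments in RTX, 5FdUR and NT, against 323, 172 and 509 in RIPctr. LINC00513, on the opposite strand, had a mean ratio of -0.13 ± 0.39 (adjusted p = 0.90), with 5, 7 and 7 TS-RIP fragments in RTX, 5FdUR and NT, against 5, 7 and 4 in RIPctr. KLF14, a zinc finger transcription factor gene 196002 bases away, had 0.66 ± 0.90 (adjusted p = 0.503). At this locus the host and the entry inside it were low together, and the overlapping gene of the other strand had ratios on both sides of 0.

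At the AC025031.4 locus the host SLC38A4-AS1 had a mean ratio of -0.68 ± 0.29 that did not pass the test (adjusted p = 0.122), with 25, 17 and 33 TS-RIP fragments in RTX, 5FdUR and NT, against 39, 20 and 33 in RIPctr. SLC38A2, an amino acid transporter gene 16083 bases away on the other strand, had -0.24 ± 0.14 (adjusted p = 0.176). AC025031.5, an entry of unconfirmed status 12518 bases downstream on the same strand, fell by 3.94 ± 0.85 on the log2 scale in TS-RIP (adjusted p = 7.7e-05, and 0.08 without treatment as a block). Its TS-RIP counts were 5, 0 and 3 in RTX, 5FdUR and NT, against 38, 19 and 50 in RIPctr. AC025031.5 too lies inside SLC38A4-AS1, and whether its fragments and those of AC025031.4 came from this host was not tested. AC025031.4 was itself picked for a low ratio. The TS-RIP level of the host was 49.6% of RIPctr in RTX (28.8 to 84.1), 62.2% in 5FdUR (30.6 to 125) and 74.6% in NT (44.6 to 125). With so few fragments, the missing call for the host does not show equal levels in the 2 fractions.

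ZNF638, the host of AC007878.1, had a mean ratio of -0.35 ± 0.24 (adjusted p = 0.072), with 1540, 1301 and 3185 TS-RIP fragments in RTX, 5FdUR and NT, against 1506, 1031 and 3584 in RIPctr. PAIP2B had 0.32 ± 0.02 (adjusted p = 0.132) and DYSF, the dysferlin gene, 0.15 ± 0.28 (adjusted p = 0.641). Around AL133325.3, XRN2, a nuclear exonuclease gene 109436 bases away, had -0.01 ± 0.25 (adjusted p = 0.983) and FOXA2, an endodermal transcription factor gene 1078064 bases away, 0.36 ± 0.27 (adjusted p = 0.664). Beside AL356488.2, TMEM167B, 3259 bases upstream on the same strand, had 0.04 ± 0.14 (adjusted p = 0.909) and KIAA1324 (ELAPOR1), 13496 bases downstream, 0.59 ± 0.56 (adjusted p = 0.325). Of the 13 measured genes around the 5 entries, the LINC-PINT entry and AC025031.5 passed the test, both lower.

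**Figure D4:**
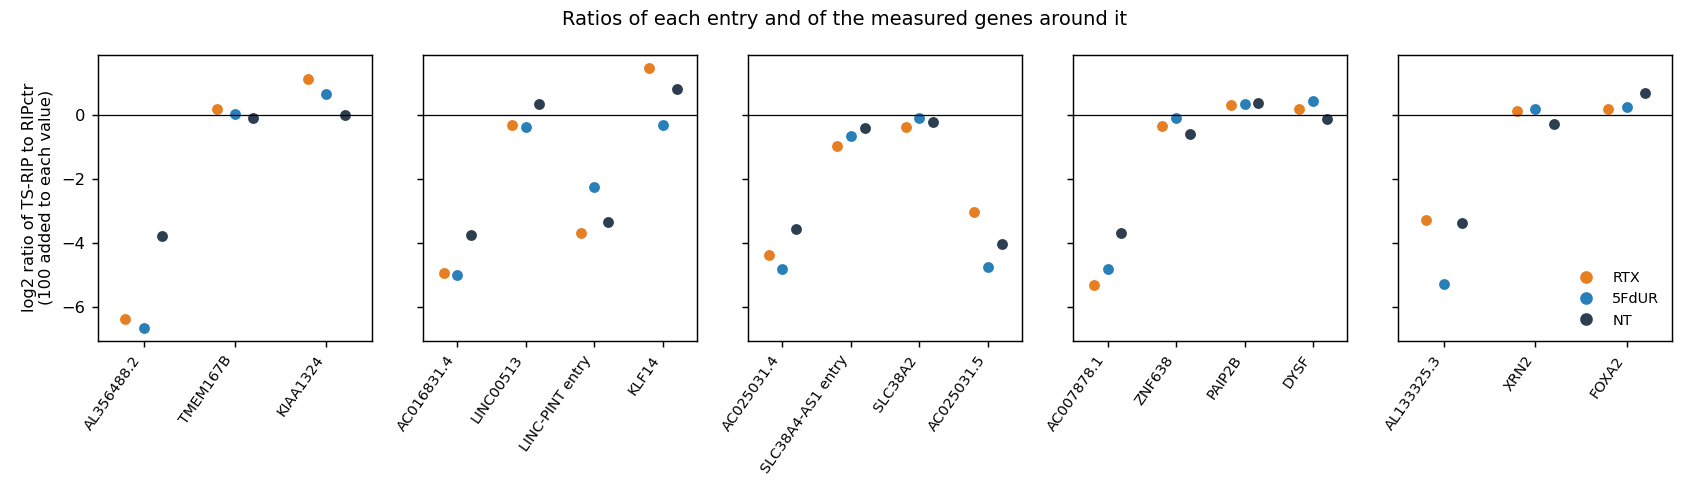
Log2 ratio of TS-RIP to RIPctr (y axis, 100 units added to each value) of each entry, first in its panel, and of the measured genes that overlap or flank it, in RTX, 5FdUR and NT (1 point per treatment). The 5 entries sit between -6.65 and -3.30, and of the genes around them the LINC-PINT entry and AC025031.5 lie below -2 in all treatments.

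The share of a host's fragments that fell into its inner entry does not depend on the scaling of a library. Because the entries were picked for a low ratio, a lower share in TS-RIP follows wherever the host was less low, so these shares are a description. AC007878.1 made up 0% of the fragments of itself and ZNF638 together in TS-RIP under RTX (0 to 0.239) and under 5FdUR (0 to 0.283), and 0.0628% in NT (0.0076 to 0.227). In RIPctr the shares were 2.02% (1.37 to 2.85), 1.90% (1.17 to 2.92) and 0.830% (0.561 to 1.18) in RTX, 5FdUR and NT. AC025031.4 made up 3.85% (0.0973 to 19.6), 0% (0 to 19.5) and 8.33% (1.75 to 22.5) of itself and SLC38A4-AS1 in the TS-RIP libraries of RTX, 5FdUR and NT, against 45.1% (33.2 to 57.3), 50% (33.8 to 66.2) and 52.2% (39.8 to 64.4) in RIPctr. AC016831.4 made up 3.12% (0.0791 to 16.2), 0% (0 to 7.40) and 5.71% (1.58 to 14.0) with LINC-PINT in TS-RIP, against 12.9% (9.70 to 16.8), 11.8% (7.63 to 17.2) and 9.11% (6.86 to 11.8) in RIPctr. For this host, itself low in TS-RIP, the intervals overlapped in RTX and NT.

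The effect of the drugs on the entries was read in RIPctr, the fraction with enough fragments, and with 1 library per treatment it carries no test. Changes between treatments are given on the log2 scale without a pseudocount, as are their intervals. AL356488.2 was higher by 1.17 in RTX than in NT (1.02 to 1.33) and by 0.95 in 5FdUR than in NT (0.78 to 1.11). In TS-RIP it differed the other way, by -1.47 in RTX against NT (-2.41 to -0.60) and by -2.0 in 5FdUR against NT (-3.15 to -1.0), and both comparisons share the NT libraries. AC016831.4 differed in RIPctr by 0.04 in RTX (-0.56 to 0.64) and by -0.89 in 5FdUR (-1.67 to -0.15), both against NT. The remaining 3 had RIPctr intervals that held 0 for both drugs against NT, with changes between -0.04 and 0.45 in RTX and between -0.59 and 0.48 in 5FdUR.

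With a change of at least 1 after adding 100 units to each value, 1 of the 5 entries was counted as higher in RTX than in NT, AL356488.2, where 8.70% of 12683 genes were (mean of both RIPctr libraries above 1000). None was lower in RTX, where 5.15% of genes were. In 5FdUR against NT, 0 of the 5 were higher and 0 lower, where 13.7% and 10.1% of 12693 genes were. In 5FdUR against RTX, 0 of the 5 were higher and 0 lower, where 2.53% and 1.76% of 12806 genes were. Between the drugs, AC016831.4 differed by -0.93 (-1.71 to -0.19) and AL356488.2 by -0.22 (-0.36 to -0.09) in 5FdUR against RTX, and the intervals of the other 3 held 0. The value of AC016831.4 rests on 23 fragments in 5FdUR and 48 in RTX and was -0.15 in the 50% subsample, with 14 and 17.

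**Figure D5:**
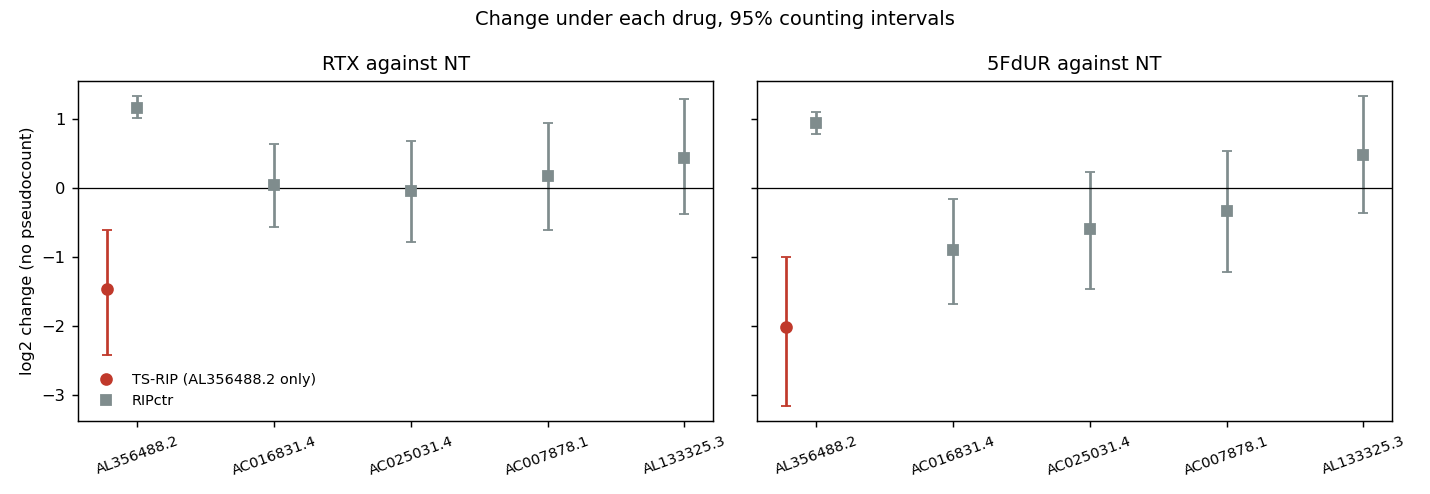
Log2 change in RTX against NT (left) and in 5FdUR against NT (right) of each entry in RIPctr (grey squares), and of AL356488.2 in TS-RIP (red circles), without a pseudocount and with 95% counting intervals. AL356488.2 is above 0 in RIPctr and below 0 in TS-RIP under both drugs, and AC016831.4 in 5FdUR is the other RIPctr value whose interval lies off 0.

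Host and inner entry did not always shift alike under the drugs in RIPctr. ZNF638 differed by -1.12 in RTX (-1.21 to -1.04) and by -1.54 in 5FdUR (-1.64 to -1.44) against NT, whereas AC007878.1 differed by 0.17 (-0.60 to 0.95) and -0.33 (-1.22 to 0.54). The LINC-PINT entry differed by -0.53 in RTX (-0.74 to -0.33) and by -1.31 in 5FdUR (-1.57 to -1.06) against NT, and the intervals of AC016831.4 overlapped these. SLC38A4-AS1 differed by 0.37 in RTX (-0.34 to 1.08) and -0.46 in 5FdUR (-1.34 to 0.38), beside -0.04 and -0.59 for AC025031.4.

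The annotated structure of the 5 entries was set beside that of all measured lncRNAs, without a test. A single exon was annotated for 4 of the 5 and for 28.3% of the 1137 measured lncRNAs, and 3 of the 5 lay inside another gene on the same strand, as did 11.7%. Wholly intronic position on the same strand applied to 2 of the 5 and to 9.59%. Over all measured lncRNAs, those wholly intronic to a gene of the same strand (109 entries) had a median mean ratio of -1.42, and the others -0.46, and single-exon lncRNAs (322 entries) had -0.72, and the others -0.48. The classes of intronic and single-exon lncRNAs include 2 and 4 of the 5 entries.

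Length and base composition varied among the 5. AL356488.2 is short and GC-rich, at 427 bases shorter than all but 0.967% and at 65.8% GC richer than 98.9% of measured lncRNAs. AC016831.4, AC025031.4 and AC007878.1 were AT-rich, with 39.1%, 37.5% and 36.9% GC, at percentiles 11.5, 6.68 and 5.19. AL133325.3 had 48.9% GC, close to the median of 47.9%. AGCCC was found on the sense strand of all 5, with 2 matches each and 7 in AL133325.3, and in 88.7% of measured lncRNAs (88.2% on the antisense strand). ACCTCCC and GCCTCCC, part of an Alu-derived nuclear retention element, were found on the sense strand of 0 of the 5 and in 30.2% and 49.7% of measured lncRNAs. On the antisense strand 2 of the 5 held ACCTCCC and 1 held GCCTCCC, beside 27.8% and 48.4%. In the promoter window, 250 bases before to 50 after the start, TATAAA occurred on neither strand of any of the 5 (5.89% sense and 7.74% antisense over measured lncRNAs). CCAAT occurred in 1 on the sense and 2 on the antisense strand (17.9% and 18.2%) and GGGCGG in 1 on the sense strand and 0 on the antisense strand (26.7% and 30.3%). A match is a description of letters and not a site.

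Among 11758 other genes with a RIPctr mean above 2000 units, the 5 with the profile nearest to the average of the entries over the 6 libraries were SCARNA12, EID3, EBLN2, SNORD3B-1 and NEAT1. Nearness was the Euclidean distance of log2 values, each gene centred on its own mean, and was 0.97, 1.03, 1.08, 1.24 and 1.30. The entries themselves lay between 0.58 (AC025031.4) and 1.5 (AL356488.2) from their average. SCARNA12, a Cajal body RNA, had TS-RIP counts of 4, 4 and 7 in RTX, 5FdUR and NT, against 123, 103 and 130 in RIPctr. SNORD3B-1, a copy of the U3 small nucleolar RNA whose reads near-identical copies can share, had 13, 20 and 45 in TS-RIP against 330, 264 and 346 in RIPctr. NEAT1 had 207, 207 and 642 in TS-RIP against 12516, 9697 and 7119 in RIPctr. EID3 and EBLN2 are protein-coding genes of a single exon, inside introns of TXNRD1 and PPP4R2 on the same strand, and had 0, 0 and 1 TS-RIP fragments each, against 40, 31 and 22 for EID3 and 25, 11 and 14 for EBLN2 in RIPctr. All 5 were listed for likeness to a profile chosen as low in TS-RIP, so their low ratios are not separate evidence.

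Because AL356488.2 holds the SCARNA2 sequence, the other Cajal body RNAs in the table were looked up after its values were known. All 6 with a mean above 500 were lower in TS-RIP by limma: SCARNA7 (mean ratio -5.01), SCARNA5 (-5.01), SCARNA12 (-4.75), SCARNA10 (-4.13), SCARNA6 (-3.96) and SCARNA13 (-2.87), with adjusted p between 1.04e-07 and 0.000641, where 6.17% of all genes were. SCARNA10 (adjusted p = 0.0712) and SCARNA6 (0.051) lost this call by limma without treatment as a block. An RNA with little TS-RIP signal reaches the mean of 500 only through RIPctr, so this filter favoured low ratios. SCARNA12 was also among the nearest profiles, which were listed for likeness to a low profile. Nothing is read from the count of Cajal body RNAs called. SCARNA5 had 1, 0 and 0 TS-RIP fragments in RTX, 5FdUR and NT, against 28, 34 and 33 in RIPctr. SCARNA6 had 0, 2 and 0 against 16, 21 and 15. The size of these 2 ratios depends on the pseudocount: SCARNA5 had -7.49 with 10 units and -2.26 with 1000, and SCARNA6 -6.28 and -1.57. In RIPctr, SCARNA7 differed by 1.67 in RTX and 0.89 in 5FdUR against NT, beside 1.17 and 0.95 for AL356488.2. SCARNA13 differed by 1.3 in RTX and by 0.16 in 5FdUR. SCARNA12 differed by 0.05 and -0.08 in RTX and 5FdUR, SCARNA5 by -0.11 and 0.30, SCARNA10 by -0.23 and -0.20, and SCARNA6 by 0.22 and 0.74. Counting intervals were not computed for these scaRNA changes, and those of SCARNA5 and SCARNA6 rest on few fragments.

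Well-known lncRNAs were set beside the entries by where they reside. They were looked up by entry name, and LINC-PINT alone by transcript, so others counted in an entry of another name would be missed. Of 10 nuclear lncRNAs 6 were found and measured, with a median mean ratio of -3.43. Of the 6, 4 fell (MALAT1, NEAT1, KCNQ1OT1 and the LINC-PINT entry) while none rose. The lowest was MALAT1 (-5.43, adjusted p = 1.52e-08) and the highest FIRRE (-0.45, adjusted p = 0.104). Of 10 cytosolic lncRNAs 5 were measured, with a median of -0.19, and 1 fell, SNHG8 (-0.69 ± 0.66, adjusted p = 0.0352), while none rose. SNHG8 lost this call in 6 of 11 alternatives, among them edgeR (adjusted p = 0.0582) and leaving out RTX (adjusted p = 0.319). The highest of these was ZFAS1 (0.22, adjusted p = 0.245). Beside the 5 entries, whose median was -4.57, the background was 6.17% of genes lower by this fit and a median of -0.01 over all measured genes.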

How the data were processed

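RNA from TS-RIP and RIPctr was measured in 6 libraries. Per the study's methods, the authors depleted rRNA, made randomly primed strand-aware paired-end libraries, trimmed with fastp, filtered rRNA with BWA and mapped the rest to GRCh38 with HISAT2. They kept unique alignments and counted on GENCODE 34 with the Cufflinks suite (Cuffnorm, geometric scaling, no length correction). Tool versions are not given in the sources used here. The values the authors deposited are a signal, whole fragments times a factor per library, although they were named FPKM: below 200 fragments, 100% of values were whole multiples within 0.05 fragments. The same deposited table holds a second signal per library from 50% of its reads, used here as an alternative depth. The other 25 per-sample value columns were not used here.

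Ratios of TS-RIP to RIPctr are differences of log2(value + 100), and changes between treatments are given without a pseudocount. limma 3.58.1 (lmFit, eBayes with trend, treatment as a block) in R 4.3.3 was run over all genes with a mean above 500, and p-values were adjusted by Benjamini-Hochberg over all of them. It takes the treatments as pairs, so its p-values measure the spread between treatments and not between cultures. edgeR 4.0.16 (quasi-likelihood) on the recovered fragments called 711 genes lower and 382 higher, and DESeq2 1.42.0 was a further alternative. All 3 were also run on simulated counts in which 200 genes were changed between the fractions. The simulation held no effect of treatment, so it does not cover the spread between treatments in these data. Coordinates and sequences are from GENCODE 44 and the GRCh38 genome.

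The members, gene lists and tests were chosen with earlier results of these data known. Named were the 5 entries, up to 3 measured genes that overlap or flank each, the 5 nearest profiles, and the lowest and highest of each lncRNA list. Other genes named in the text were chosen after seeing their values. The labels give no replicate numbers. Alternatives were other pseudocounts, scaling to the same total, the 50% subsample, no filter, no block and leaving out each treatment.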

Additional observations from a re-analysis of the deposited data

Results flagged for a closer look

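AL356488.2, the entry that holds SCARNA2, moved in opposite directions in the 2 fractions under both drugs. Its log2 change in RTX against NT without a pseudocount was -1.47 in TS-RIP and 1.17 in RIPctr, a difference of -2.64. In 5FdUR against NT it was -2.0 in TS-RIP and 0.95 in RIPctr, a difference of -2.95. All 4 counting intervals lay off 0, with 15, 10 and 47 TS-RIP fragments in RTX, 5FdUR and NT, against 1033, 808 and 501 in RIPctr. With 1 library per treatment and fraction, the difference between the fractions was not tested, and both comparisons share the NT libraries. The pattern was not particular to AL356488.2. NEAT1 had TS-RIP values of 19947, 20630 and 54572 units in RTX, 5FdUR and NT. Its RIPctr changes against NT were 0.94 in RTX and 0.70 in 5FdUR. MALAT1, KCNQ1OT1 and SCARNA7 also had their highest TS-RIP and lowest RIPctr value in NT. The LINC-PINT entry was instead lower in both fractions under both drugs. Measured lncRNAs had a median ratio of -0.69 in RTX, -0.56 in 5FdUR and -0.30 in NT.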

How the results depend on the processing

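The ratios of the 5 entries and their changes in RIPctr were recomputed under each alternative, and no value whose counting interval lay off 0 changed sign. With 100 units added, the median ratio was -4.95 in RTX, -5.02 in 5FdUR and -3.70 in NT. A pseudocount of 1000 gave -2.28, -2.05 and -2.02 and put each median outside the counting interval of the median entry, the TS-RIP values of the entries other than AL356488.2 all being below 1000 units. A pseudocount of 10 gave -8.10 in 5FdUR. Under it, the same-total scaling and the 50% subsample, all medians of ratios and of RIPctr changes stayed inside. Where an entry had 0 TS-RIP fragments, as the median entry in 5FdUR did, the interval of its ratio had no lower end. A lower ratio could not fall outside such an interval, so -8.10 against -5.02 counted as inside and does not show a stable size. The median of the mean ratio over the treatments was -4.57 and lay between -4.98 and -4.34 when 1 treatment was left out. Of 178 alternatives for single entries, 162 stayed within the counting interval, again open below at 0 TS-RIP fragments, or the SD. Of the other 16, 14 came from the pseudocount of 1000 and 2 from the 50% subsample, both of AC016831.4: its change in 5FdUR against RTX (-0.15) and its share with LINC-PINT in RTX RIPctr (9.60%, against 12.9% in the full library). Added after seeing the data were the values without a pseudocount, the host shares in the 50% subsample and the alternatives for AL356488.2 in TS-RIP, whose change ran between -1.59 and -1.03 in RTX and between -2.28 and -1.32 in 5FdUR, both against NT.

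With no filter on low values, genes lower in TS-RIP by size numbered 7964 in RTX, 8241 in 5FdUR and 5266 in NT, against 1985, 2080 and 1304 with it. For RIPctr in 5FdUR against RTX, 324 genes were higher and 226 lower. A pseudocount of 1000 gave 156 and 78, and the 50% subsample 494 and 371, both alternatives chosen after seeing the data. limma called 831 genes lower, against 1414 with no filter, 475 with the 50% subsample, 460 with the same-total scaling and 47 with no block, and DESeq2 called 419. Of the 12 named genes outside the 5 entries that passed limma, AC025031.5 (adjusted p = 0.08), SCARNA10 (0.0712) and SCARNA6 (0.051) lost the call with no block. SNHG8 lost it in 6 alternatives, its adjusted p running between 1e-12 and 1.0 over all 11. The remaining 8 kept it in each. Without NT, SLC38A2, ZNF638 and NORAD passed as lower and ZFAS1 as higher, and ZNF638 also with no filter. Leaving out 1 treatment gave between 373 (without RTX) and 2151 (without NT). The cause was not tested. No paired analysis by replicate number was possible because each group has 1 library. Depth limits the entries other than AL356488.2, whose TS-RIP counts of 0 to 4 do not order the treatments.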
